A study of Mus musculus with 10 samples.

Results

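The 5 libraries of hypertrophied hepatic stellate cells (hypHSCs) of this series came from mice that had been fed for 2 different lengths of time, and here they were compared with each other, preparation by preparation. They are 5 of the 10 libraries of the series. hypHSC 1 and 2 were prepared from C57BL/6J mice after 13 weeks on the CDAHFD, a diet rich in fat and without choline, its protein replaced by defined amino acids, that gives steatohepatitis and fibrosis, at an age of 19 weeks. hypHSC 3, 4 and 5 were prepared from C57BL/6J mice after 12 weeks on the same diet, at an age of 18 weeks, so diet time and age cannot be told apart. The other 5 libraries, quiescent HSCs (qHSCs) of C57BL/6J mice on a standard diet at 34 or 36 weeks of age, are used only as a reference for the spread between preparations. In both kinds of preparation the liver was dissociated, and the cells were enriched on a density gradient and sorted on their own fluorescence. For sequencing, the paper took the hypHSC preparations with the highest RNA integrity among many. Their mean integrity was lower than that of the selected qHSC preparations, though the paper reports no difference. Its sorted hypHSCs also held more dead cells on average, which it calls equivalent. The labels give neither value for single libraries, so their part in the spread was not tested. According to the paper, the steps of preparation were not the same. The CDAHFD livers were digested with more enzyme and with antibiotics, and hypHSCs were sorted on green and qHSCs on blue fluorescence. The part of these steps in the spread between preparations was not tested. The labels do not say which mouse gave which library, and several preparations can share a mouse, so a p-value here measures the spread between these preparations and no more.

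Of the 25233 entries of the gene table that carry a gene symbol, 15224 were kept because 2 or more of the 5 hypHSC libraries reached 10 normalized counts, and 10009 were not. A normalized count is the number of reads on a gene divided by the size factor of its library. At the edge of this filter, *4930529C04Rik* was kept with a second-highest value of 10.35 normalized counts, and *2410018L13Rik* was left out with 9.98. A library held 30534719 to 43283589 reads on genes with a symbol, and 3 reads, taken as the floor of detection, were worth 2.49 to 4.54 normalized counts. These limits cover counting error only. Of the 15224 genes, 227 passed the filter through 13-week libraries alone and 185 through 12-week libraries alone, and such genes had to differ between weeks. Levels are compared as log2(normalized count + 1), a scale that understates differences of genes with few counts.

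Hepatic stellate cells are the pericyte-like cells of the liver sinusoid that store retinyl esters in lipid droplets. When the liver is injured they can lose these droplets and become matrix-producing myofibroblasts. The diseased liver also holds resident Kupffer cells, recruited monocytes and the lipid-associated macrophages that gather around dying, fat-laden hepatocytes. Because each library is a mixture of cells, fewer cells of a type and less RNA per cell cannot be told apart.

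The labelled cell type was first set against its markers. The summed level of 27 quiescent HSC genes, among them *Lrat*, which esterifies retinol, and *Reln*, a secreted matrix protein, was 74951 normalized counts in hypHSC 1 and 39115 to 48740 in the other 4 hypHSC libraries. In the qHSC libraries it was 1703324 to 2775449. The summed level of 20 core macrophage genes, among them *Lyz2* (lysozyme) and *Ctss* (cathepsin S), was 1632596 to 2068463 in the hypHSC libraries and 7966 to 163856 in the qHSC libraries. The data of all 5 hypHSC libraries thus went against the label, with far more counts on macrophage genes than on genes that define HSCs, and the name hypHSC is kept only as the name of the sorted preparation. None of the 27 HSC genes was without reads in all 5 libraries, but *Ngfr*, the p75 neurotrophin receptor of HSCs, had 189, 165 and 147 normalized counts in hypHSC 1, 2 and 3, 3.15 in hypHSC 4 and 0 in hypHSC 5.

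The first comparison asked whether the 13-week and 12-week preparations differ. No gene passed an adjusted p of 0.05 with at least a 2-fold difference in limma (0 of 15224, 0%), and the smallest adjusted p was 0.784. Without adjustment, 538 genes (3.53%) had a p under 0.05 in limma, 874 in DESeq2 and 495 in edgeR, and these tools also made 0 calls after adjustment. Without hypHSC 1, 2, 4 or 5 the unadjusted count in limma was 60, 148, 181 or 459, and without hypHSC 3 it was 3238. A fit that weights the libraries by their own spread called 3576 genes, but the weights did not converge and gave hypHSC 4 a weight of 37.8 against 0.159 to 0.950 for the others. The median log2 difference, 13 minus 12 weeks, was 0.29 over all genes, and 63.5% of the genes were on the higher side at 13 weeks. A log2 difference of 1 or more was seen in 25.7% of the genes and one of -1 or less in 6.18%. This lean depended on how the libraries were scaled, since the median was 0.15 with TMM factors and 0.04 in DESeq2. Differences below are therefore best read against 0.29.

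The libraries did not group by diet time. The pair most alike was hypHSC 2 and 3, of different weeks, with a Pearson r of 0.913 over the 15224 genes, a description across genes, which are not independent. hypHSC 1 and 3 followed with 0.911, and hypHSC 1 and 2, the 13-week pair, with 0.908. hypHSC 4 correlated with hypHSC 1, 2 and 3 at 0.867 to 0.871, and hypHSC 5 with them at 0.791 to 0.810. The lowest value, 0.791, was between hypHSC 3 and 5, which share their 12 weeks. The mean distance (1 minus r) was 0.138 between weeks and 0.141 within weeks, a difference of -0.0032 (exact one-sided permutation test over the 10 arrangements of 2 against 3, p = 0.7). With 2 against 3 libraries this test cannot go below 0.1. On the first principal component, with 58.0% of the variance, hypHSC 1, 2 and 3 lay together at -84.8 to -80.9, hypHSC 4 at 45.7 and hypHSC 5 at 203.

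The collagen genes were on the higher side in the 13-week preparations, without a gene that passed the test. All 22 collagen genes of the list had a higher mean log2 level at 13 weeks, with a median log2 difference of 1.45, and in 16 of them both 13-week libraries lay above all 3 of the 12-week libraries. Over all genes this held for 2435, or 16%, and the reverse for 956, or 6.28%. The split leaned less with TMM factors, under which it was 1761 above and 1463 below, and in the collagens it was then 15 of 22. *Col1a1*, the alpha-1 chain of type I collagen, had 8865 and 7811 normalized counts in the 13-week libraries and 7190, 2122 and 1860 in the 12-week libraries. The 13-week values were both higher, but hypHSC 3 was close to them, and the log2 difference was 1.45 (SE 0.61). *Col4a2*, a chain of basement membrane collagen, had 1829.9 and 1102 at 13 weeks and 632, 368 and 260.1 at 12 weeks, with no overlap and a log2 difference of 1.85 (SE 0.51). The summed collagen level was 62413, 39696, 31998, 14628 and 16214 normalized counts in hypHSC 1 to 5 (exact two-sided permutation test, p = 0.1, the smallest possible). Without hypHSC 1 the count of collagens was again 16 of 22, beside 29.9% of all genes. Genes that remodel the matrix were divided. Of 18 metalloproteinase and TIMP genes, 16 had a higher mean at 13 weeks, beside 63.5% of all genes. Without overlap 5 were above and 2 below, beside 16% and 6.28% of all genes. The sum of the list, 94.1% of it *Mmp12*, averaged 358555 normalized counts at 13 weeks and 488687 at 12 weeks.

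The contractile and signalling genes of activated HSCs lay on the same side. Of 26 genes of the activated HSC and myofibroblast list that passed the filter, 25 had a higher mean at 13 weeks, beside 63.5% of all genes, and 15 did so without overlap, beside 16%, with a median log2 difference of 1.20. With values corrected for GC content, as described below, 9 of the 26 did not overlap, beside 10.5% of all genes. This list shares *Col1a1*, *Col3a1* and other collagens with the list above. *Acta2*, smooth muscle actin, had 1473 and 909 normalized counts at 13 weeks and 472, 747 and 637 at 12 weeks. *Tagln*, an actin-binding protein of smooth muscle and myofibroblasts, had 1323 and 830.3 against 534, 272 and 180.0. *Pdgfrb*, the receptor through which platelet-derived growth factor acts on HSCs, had 909.6 and 815 against 625, 88.1 and 171. In these 3 genes the week groups did not overlap, with the lowest 13-week value 1.22, 1.56 and 1.30 times the highest 12-week value. *Tpm1*, a tropomyosin, was the exception of the list, with 5192 and 4176 at 13 weeks and 3530.1, 6836 and 6393 at 12 weeks.

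Of the genes picked by their statistic, *Adamtsl2*, a secreted protein that binds fibrillin and latent TGF-beta and is a known HSC gene, led the higher side. It had 2187 and 1553 normalized counts in hypHSC 1 and 2 and 606, 435 and 358 in hypHSC 3, 4 and 5, a log2 difference of 2.01 (SE 0.41) that did not pass adjustment (limma, adjusted p = 0.784, as for every gene of this kind named here). Its levels in the 5 qHSC libraries ran from 2094 to 6847. *Fam180a*, of which little is known, had 7211 and 3628 at 13 weeks and 2037, 1706 and 1437 at 12 weeks. *Ehd3*, an endocytic recycling protein that marks sinusoidal endothelium and is also high in these qHSCs, had 2151 and 1489.7 against 568, 529.8 and 306. All 3 genes had their lowest level in hypHSC 5. In the quiescent HSC list, 22 of 25 passing genes had a higher mean at 13 weeks, beside 63.5% of all genes. Without overlap there were 9 of 25, beside 16% of all genes. With values corrected for GC content there were 6 of 25, beside 10.5%. The median log2 difference of the list was 0.87, and without hypHSC 2 this median was 1.47. *Dcn* (decorin) made up 52.7% of the summed level of the list, with 39405 and 19546 at 13 weeks and 16456, 27143 and 31016 at 12 weeks, which overlap.

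**Figure D1:**
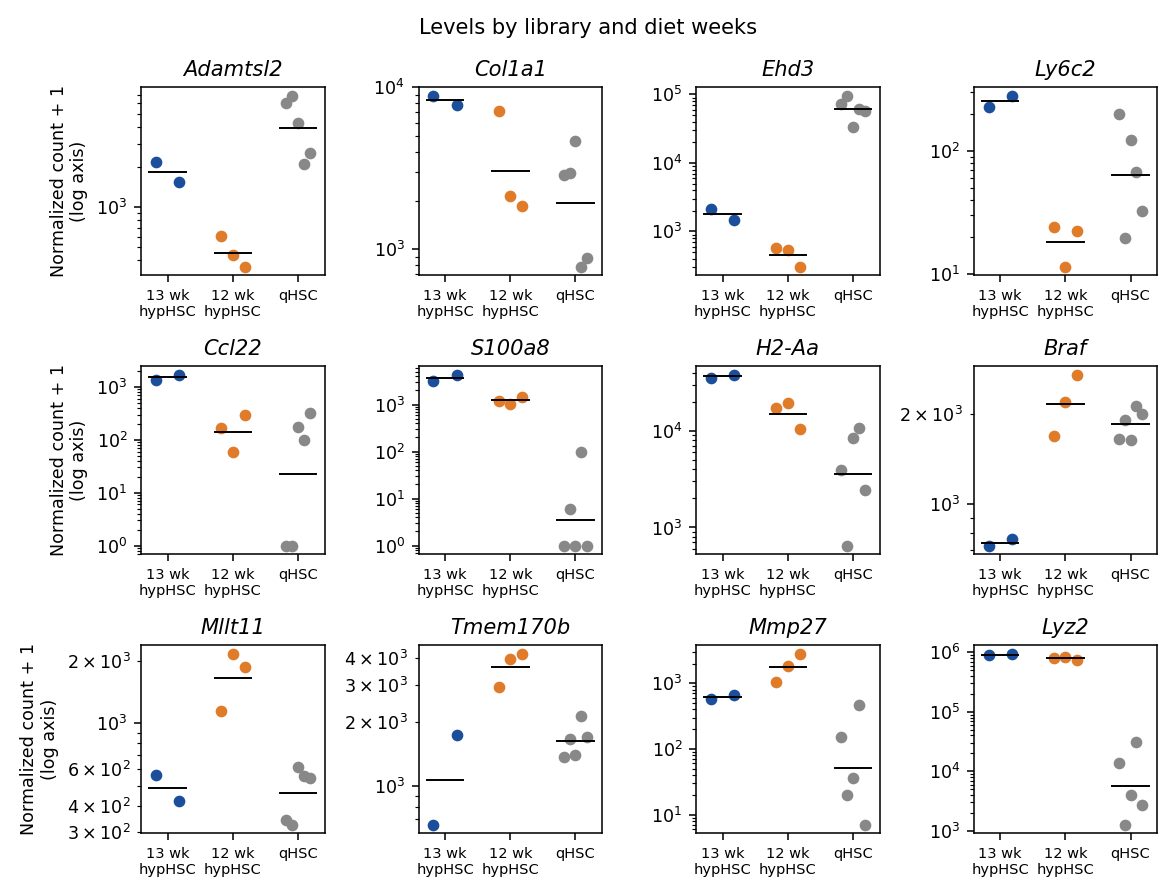
Normalized count + 1 of 12 genes (log axis) in each library of the 13-week hypHSCs, the 12-week hypHSCs and the qHSCs. Points are libraries and bars the mean of the log values. In *Adamtsl2* the 13-week libraries (2187 and 1553) lie above the 12-week libraries (358 to 606), in *Braf* they lie below (724 and 759 against 1681 to 2704), and *Lyz2* is nearly level over all 5 hypHSC libraries.

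A second group of genes higher in both 13-week preparations belongs to blood-derived myeloid cells. *S100a8* and *S100a9* form calprotectin, the abundant cytosolic protein of neutrophils and young monocytes. *S100a8* had 3126 and 4294 normalized counts in hypHSC 1 and 2 and 1180.0, 1050.2 and 1479 in hypHSC 3, 4 and 5, a log2 difference of 1.58 (SE 0.35). *S100a9* had 776 and 1330.3 against 278, 339 and 309, a log2 difference of 1.72 (SE 0.43). The 3 values at 12 weeks lay within 1.41-fold and 1.22-fold of each other. Both genes were picked for groups that do not overlap, and neither passed adjustment. All 8 neutrophil genes that passed the filter, of 12 in the list, had a higher mean at 13 weeks, and 5 did so without overlap, beside 16% of all genes, with a median of 1.65. The others that did not overlap were *Cxcr2*, *Retnlg* and *Ngp*, of which *Ngp* passed the filter through the 13-week libraries alone.

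Monocyte and dendritic cell genes were mostly on the same side. *Ly6c2*, the Ly6C antigen of inflammatory monocytes, had 226 and 279.5 normalized counts at 13 weeks and 23.3, 10.5 and 21.2 at 12 weeks, a log2 difference of 3.78 (SE 0.81). *Ccl22*, a chemokine made by dendritic cells, had 1345 and 1689 against 169.6, 56.7 and 295 (3.40, SE 0.73). *Flt3*, the receptor for the growth factor of dendritic cells, had 117 and 92.1 against 0.83, 3.15 and 0, where all 3 of the 12-week values are at or under the floor of 3 reads, so that the gene passed the filter only through the group in which it was high. *Ccr7*, which guides mature dendritic cells to lymph nodes, had 853 and 1619 against 151, 177 and 18.2. Of the 14 genes of the list, 13 had a higher mean at 13 weeks and 8, *Flt3* among them, did so without overlap, beside 16% of all genes, with a median log2 difference of 1.36. The dendritic cell genes did not all follow, because *Clec9a* and *Xcr1*, which mark cross-presenting dendritic cells, had 588 and 717 normalized counts in hypHSC 5 against 195 and 385 in hypHSC 1 and 329 and 986 in hypHSC 2.

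Antigen presentation and interferon genes were also on the higher side at 13 weeks, with smaller differences. The 10 MHC class II genes all had a higher mean at 13 weeks, 6 without overlap beside 16% of all genes, with a median of 1.05. With values corrected for GC content 3 of 10 did not overlap, beside 10.5% of all genes, and the median was 0.41. *H2-Aa*, the alpha chain of the I-A molecule, had 35787 and 38136 normalized counts at 13 weeks and 17132, 19302 and 10528 at 12 weeks. *Cd74*, the invariant chain, which made up 82.1% of the counts of the list, had 285143 and 313738 against 161251, 306805 and 216168, so that hypHSC 4 lay between the 13-week libraries. Of 29 interferon response genes, 28 had a higher mean at 13 weeks, 17 without overlap beside 16% of all genes, with a median of 0.81, and 14 of 28 did not overlap after GC correction. *Irf7*, the transcription factor that sustains the type I interferon response, had 3867 and 3316 against 2057, 1120.4 and 327. *Ifit1*, an RNA-binding antiviral protein, had 3580.3 and 2069 against 1134, 1534 and 1718.

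The macrophage genes that dominate these libraries were on both sides. Of the 20 core macrophage genes, 14 were on the higher and 6 on the lower side. Without overlap 5 were above and 1 below, beside 16% and 6.28% of all genes. The median log2 difference of the list was 0.09, beside 0.29 for all genes. Without hypHSC 1 or without hypHSC 2 this median was 0.28, beside 0.27 and 0.31 for all genes. *Lyz2* had 890477 and 940344 normalized counts at 13 weeks and 807710, 849524 and 740305 at 12 weeks, an SD of 0.13 on the log2 scale. *Ctss* had 391358 and 309276 against 272505, 374334 and 365924, which overlap. Of 12 resident Kupffer cell genes, 7 were on the higher and 5 on the lower side, with 2 of each without overlap. This was 16.7% on each side, beside 16% above and 6.28% below over all genes, so the share above was that of all genes. *Id3*, a transcriptional regulator that Kupffer cells need, was above with 33627 and 32164 at 13 weeks and 23470, 22245 and 7594 at 12 weeks, and *Nr1h3*, the oxysterol receptor LXR-alpha, with 3576 and 4516 against 3486, 3235 and 1369. *Vsig4*, a complement receptor of Kupffer cells, was below with 3386 and 2936 at 13 weeks and 4180.4, 7219.9 and 6764 at 12 weeks, and so was *Marco*, a scavenger receptor, with 609 and 709 against 1701, 2047 and 738. Of the 18 lipid-associated macrophage genes, 13 were on the higher and 5 on the lower side, with a median of 0.43. Without overlap 5 were above and 2 below, beside the same 16% and 6.28% of all genes. *Plin2*, a coat protein of lipid droplets, was one of the 5 with 70769.7 and 71223 at 13 weeks and 47689, 61328 and 29846 at 12 weeks. *Mmp12*, macrophage elastase, was one of the 2 with 314232 and 334781 against 367986, 473540.4 and 564856, and *Trem2*, the lipid receptor that marks these macrophages, overlapped with 28605 and 23370 against 21603, 24292 and 18746.

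The genes picked as lower at 13 weeks were of mixed function. *Braf*, a kinase of the MAP kinase cascade, had 724 and 759 normalized counts at 13 weeks and 1681, 2194 and 2704 at 12 weeks, a log2 difference of -1.54 (SE 0.36). *Mllt11* had 562 and 418 against 1140.1, 2157 and 1859 (-1.77, SE 0.42), and *Tmem170b*, a membrane protein, 660.3 and 1739 against 2921, 3977 and 4182. *Mmp27*, a metalloproteinase, had 573 and 665 against 1061, 1808 and 2803. In *Braf* and *Mmp27* the order was the same within the 12-week group, with hypHSC 3 nearest to the 13-week libraries and hypHSC 5 farthest. *Impact*, an inhibitor of the kinase GCN2, had 2452 and 4107 against 5927, 8927 and 14072. *Magef1*, *Snhg20* and *Gm12258* had 7.25 to 263 normalized counts at 13 weeks and 61.9 to 920.1 at 12 weeks. *Erdr1*, which lies in the region that the X and Y chromosomes share and whose reads cannot be placed with certainty, had 75.5 and 643 against 1028, 2961 and 4229. *H2ac11*, a histone gene of the kind whose main transcript has no poly(A) tail, had 0 and 12.4 against 24.95, 195 and 537.

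*Spats2l* and *Spint1* complete the genes picked as higher at 13 weeks. *Spats2l*, an RNA-binding protein, had 190.0 and 209 normalized counts against 16.6, 23.1 and 28.7. *Spint1*, a protease inhibitor of epithelia, had 119 and 124 against 6.65, 0 and 0, so that it passed the filter through the 13-week libraries alone, and the entry that carries its name spans chr2:119067841-119714954 (mm39), long enough to hold other genes, so its reads may not be its own.

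Markers of other liver cells that the sort could hold differed in direction from list to list. Of 16 genes of sinusoidal endothelial cells, 13 had a higher mean at 13 weeks, beside 63.5% of all genes. Without overlap there were 5, beside 16% of all genes. Among the 5, *Wnt2* passed the filter through the 13-week libraries alone and so could not overlap. The median log2 difference of the list was 1.07. Its summed level, 67.0% of it the single gene *Fcgr2b*, was 8718 and 9968 normalized counts at 13 weeks and 6222 to 7733 at 12 weeks. All 11 portal fibroblast genes that passed the filter had a higher mean at 13 weeks, 6 without overlap, beside 16% of all genes. But their median log2 level relative to the mean of the 5 libraries was 1.95 in hypHSC 1 and only -0.13 in hypHSC 2. In hypHSC 3, 4 and 5 it was -0.24, -0.14 and -0.76. The sum of the list, of which *Dpt* (dermatopontin) made up 79.5%, overlapped with 22945 and 12011 against 9834 to 14928. Of 15 T and NK cell genes only 7 passed the filter, and 3 of these did not overlap. Among the 3, *Cd2* passed through the 13-week libraries alone and so could not overlap. The sums of the list overlapped, with 883 and 200 normalized counts at 13 weeks and 93.1, 485 and 260 at 12 weeks. The median log2 difference was -0.22 for 5 B and plasma cell genes, 0.23 for 7 mesothelial genes, 0.27 for 8 erythroid and platelet genes and -0.59 for 25 hepatocyte genes. Neutrophil genes summed to 5510 and 8493 at 13 weeks and 2086 to 3370 at 12 weeks, and monocyte and dendritic cell genes to 9748 and 9859 against 3260 to 6711. *S100a8*, picked above for week groups that do not overlap, made up 51.2% of the neutrophil sum, so this sum in part repeats that choice. *Plac8* made up 49.7% of the monocyte and dendritic cell sum. The part of these other liver cells in the differences of single genes was not tested.

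Lists of cell state and metabolism had medians on either side of the 0.29 of all genes. Of 30 proliferation genes 22 had a higher mean at 13 weeks and 7 did so without overlap, shares near the 63.5% and 16% of all genes, with a median log2 difference of 0.35. The median was 0.14 for 29 immediate early genes, 0.27 for 20 heat shock genes, 0.21 for 29 genes of inflammatory cytokines and chemokines, 0.05 for 24 genes of sterol synthesis and 0.10 for 22 antioxidant genes. It was higher for 20 genes of the unfolded protein and integrated stress response (0.58), of which 7 were above without overlap. Among the 7, *Chac1* passed the filter through the 13-week libraries alone and so could not overlap. The median was 0.59 for 23 genes of hypoxia and glycolysis, of which 10 were above without overlap. It was 0.83 for 25 genes of fatty acid and triglyceride synthesis, of which 22 had a higher mean at 13 weeks and 6 did so without overlap, 0.72 for 27 genes of retinoid handling, 0.80 for the 18 metalloproteinase and TIMP genes and 0.48 for 22 genes of lipid droplets and lipolysis.

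The share of reads on mitochondrial entries, and that on entries without a symbol, which include them, also separated the weeks. Reads on genes with a symbol, genes detected, the share of the top 10 genes and that of *Malat1* overlapped between weeks (exact two-sided permutation test, p = 0.3 to 0.5). Entries of the mitochondrial genome, which carry no symbol and so are not among the 15224 genes, held 12.8% and 7.27% of all reads at 13 weeks and 3.10%, 2.21% and 3.42% at 12 weeks (exact two-sided permutation test, p = 0.1, the smallest possible). All 13 of these entries were higher in both 13-week libraries, with log2 differences of 1.47 to 2.33. Entries without a symbol together held 29.1% and 20.1% against 13.2%, 10.8% and 12.4%. Their part in the differences above was not tested. With log2 values corrected in each library for the GC content of the transcripts, an alternative chosen after seeing the data, the median difference over all genes was 0.03, that of the activated HSC list 0.71, and the collagens without overlap were 11 of 22 beside 10.5% of all genes.

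**Figure D2:**
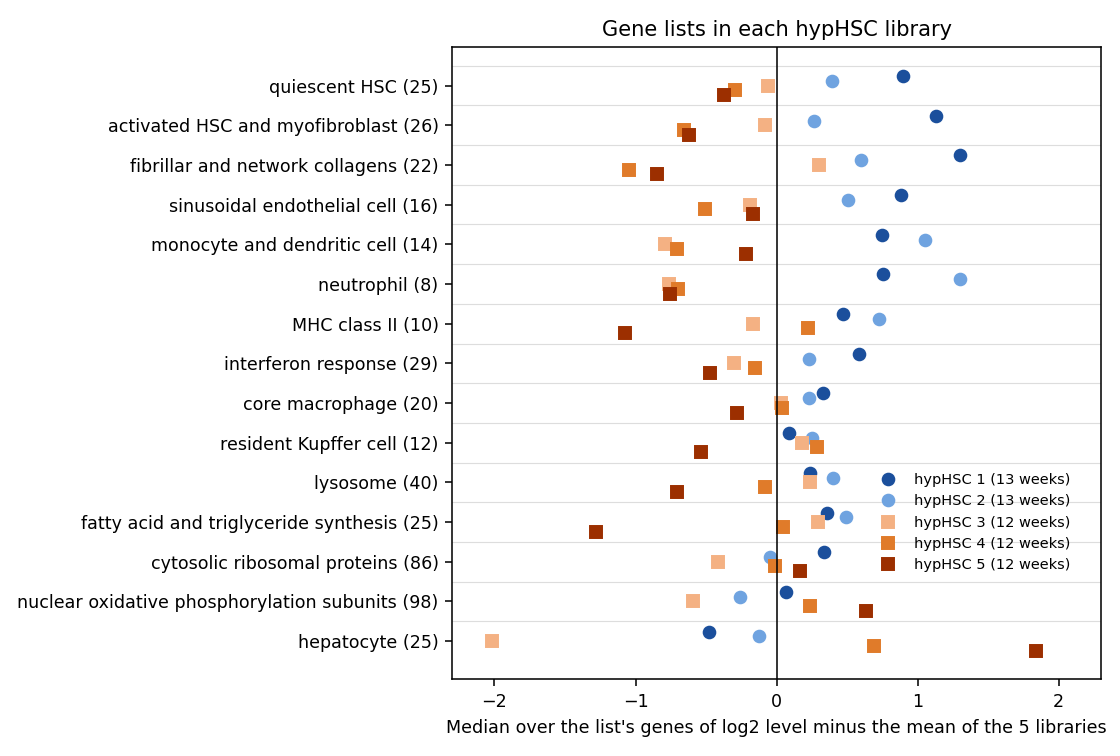
Gene lists in each hypHSC library. The x axis is the median, over the genes of a list that passed the filter (number in brackets), of the log2 level minus the mean of the 5 hypHSC libraries, circles are 13-week and squares 12-week libraries. In the collagens the 13-week libraries lie at 1.30 and 0.60 and hypHSC 4 and 5 at -1.05 and -0.85, and in the hepatocyte genes hypHSC 3 lies at -2.02 and hypHSC 5 at 1.84.

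The second comparison was of the spread between the preparations. For each library the median absolute log2 difference from the mean of the other 4 of its kind was taken over the 13832 genes that were also at 10 normalized counts or more in at least 2 qHSC libraries. It was 0.496, 0.546, 0.602, 0.453 and 1.02 in hypHSC 1 to 5, and 0.258 to 0.2995 in the qHSC libraries. Every hypHSC value was above every qHSC value (exact two-sided permutation test, p = 0.00794, the smallest possible). The values of a group depend on each other, because each library is part of the mean that the others are set against. The test does not allow for this, so its p is a description only. The median SD of a gene was 0.711 in hypHSCs and 0.326 in qHSCs, and 82.1% of the genes had the larger SD in hypHSCs. Over hypHSC 1, 2 and 3, chosen after they were seen to be the most alike, the median SD was 0.371, a value that this choice made small. Without hypHSC 5 the difference between the groups in the median deviation was 0.186 in place of 0.345. Its exact permutation p was 0.00794, again the smallest possible.

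Of the 15224 genes, 7182 (47.2%) spanned at least 4-fold over the 5 hypHSC libraries, and 3248 (21.3%) less than 2-fold. The spread was larger for genes with few counts, with a median SD of 1.85 for genes with a mean under 100 normalized counts and 0.576 for the rest. Among genes with a mean of at least 1000, the steadiest were *Ptbp3*, a splicing regulator, with 2353 to 2452 normalized counts over the 5 libraries, *5830432E09Rik* with 3243 to 3445, *Cyp4v3*, a fatty acid hydroxylase, with 2503 to 2713, *Abce1*, a ribosome recycling factor, with 1922 to 2088, and *Eif4a2*, a translation initiation factor, with 5245 to 5734. Their SDs were 0.02 to 0.05 on the log2 scale. Among genes with a mean of at least 100, *Jchain*, the joining chain of secreted antibodies, had the largest SD (5.38), with 6983 normalized counts in hypHSC 5, 131 in hypHSC 1, 11.6 in hypHSC 3 and 0 in the other 2. The alpha-globin genes *Hba-a1* and *Hba-a2*, which share most of their sequence so that reads between them are uncertain, had 0 in hypHSC 3 and 1985 and 1004 in hypHSC 1. The other 7 of the 10 genes with the largest SD were all at 0 reads in hypHSC 5.

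To see which library carried the spread, the genes in which 1 library lay at least 2-fold beyond the nearest of the other 4 were counted. hypHSC 5 lay below the others in 2944 genes (19.3%) and above them in 859 (5.64%). hypHSC 4 lay below in 656 (4.31%) and above in 159 (1.04%). hypHSC 1 lay below in 170 (1.12%) and above in 525 (3.45%), hypHSC 2 below in 1.66% and above in 206 (1.35%), and hypHSC 3 below in 368 (2.42%) and above in 150 (0.985%). hypHSC 5 thus stood apart in 3803 genes and the other 4 libraries together in 2486. It also had the fewest genes with a read, 14028, against 14949 to 16634 in the others. The 2 libraries that lay far out did so on the same side, since in 61.6% of the genes lowest in hypHSC 5 the next lowest was hypHSC 4, and in 60.1% of those highest in hypHSC 5 the next highest was hypHSC 4. The 2 libraries share the diet time with hypHSC 3, which lay with the 13-week pair.

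**Figure D3:**
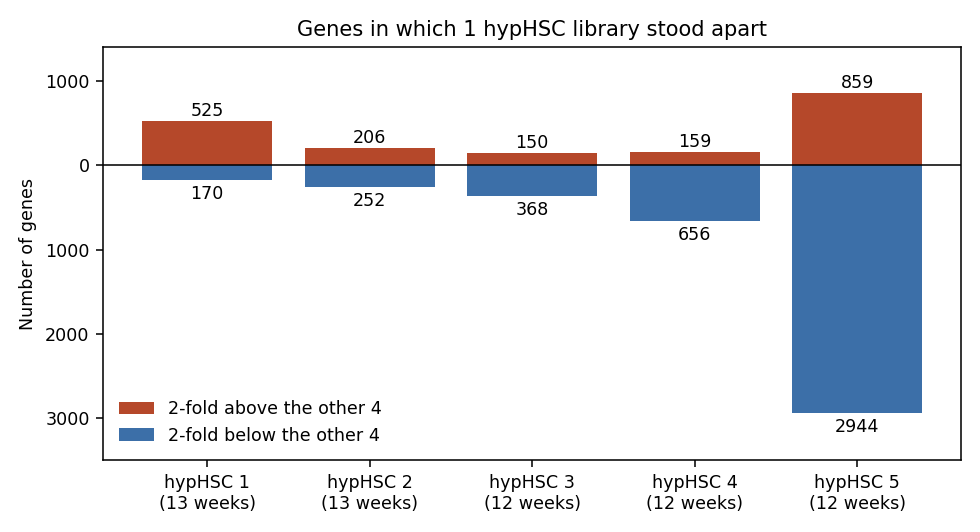
Number of genes, of 15224, in which 1 hypHSC library lay at least 2-fold above (red, upward) or below (blue, downward) the nearest of the other 4. hypHSC 5 lay below in 2944 genes and above in 859, and no other library exceeded 656 on either side.

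Some transcripts were missing from hypHSC 5 altogether. Of 8791 genes that reached 100 normalized counts in each of the other 4 libraries, 52 had 3 reads or fewer in hypHSC 5, and 29 of these had none. The same count was 1 for hypHSC 3 and 1 for hypHSC 4, and 0 for hypHSC 1 and 2. *Cttn*, cortactin, which branches actin filaments, had 1298, 1109.8, 1138 and 359 normalized counts in hypHSC 1 to 4 and 0 in hypHSC 5. *Capn6*, a calpain that binds microtubules, had 887, 691, 635 and 577, and *Pcdhb9*, a protocadherin, 341, 371, 502 and 479, and both had 0 in hypHSC 5. *Adar*, the adenosine deaminase that edits double-stranded RNA, had 825, 598, 909 and 181 in hypHSC 1 to 4, and *Cx3cr1*, the fractalkine receptor of monocyte-derived cells, 693, 1019.7, 985 and 171, again with 0 in hypHSC 5. *Lypla2*, *Ssh3* and *Cldn2* were at 0 in hypHSC 5 as well, and the first 2 of them were at 45.1 and 23.1 normalized counts in hypHSC 4. Of the 52 genes, 39 averaged 100 normalized counts or more in the qHSCs. A normalized count of 0 allows up to 4.54 in this library.

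Highly expressed genes moved between the libraries too. These were chosen after their values were seen, apart from those in the lists. *Psap*, the precursor of the saposins that help break down sphingolipids in lysosomes, had 463706, 635286 and 660497 normalized counts in hypHSC 1 to 3, 231436 in hypHSC 4 and 64923 in hypHSC 5, a 10.2-fold range. *Ctsd*, the lysosomal protease cathepsin D, had 289822, 373749 and 341495, then 114089.6 and 41646. *Gpnmb*, a glycoprotein of lipid-laden macrophages, had 186374, 337161 and 316364, then 103226 and 43714. *Actb*, cytoplasmic actin, ranged 16.3-fold, from 296496 in hypHSC 2 to 18213 in hypHSC 5. In all 4 of these genes hypHSC 4 lay between the first 3 libraries and hypHSC 5. *Sat1*, which acetylates polyamines, went the other way, with 111113, 121430, 135584, 311156 and 485014, as did *H3f3b*, a replacement histone, with 218413, 198378, 186903, 487382 and 691098. *Hprt*, a common reference gene, ranged 1.90-fold, from 4469 in hypHSC 3 to 8477 in hypHSC 5.

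**Figure D4:**
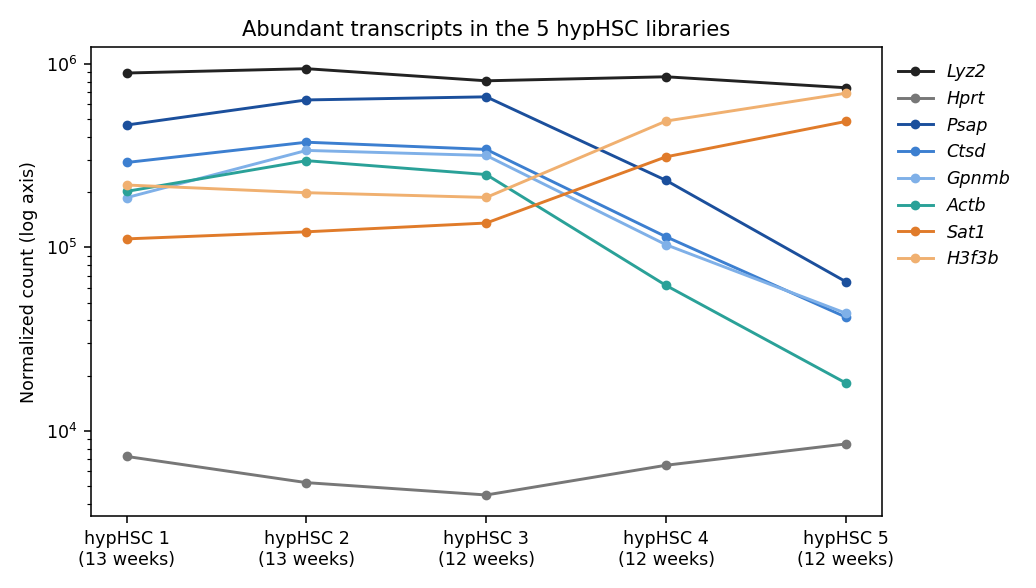
Normalized counts (log axis) of 8 abundant transcripts or reference genes in hypHSC 1 to 5. *Psap*, *Ctsd*, *Gpnmb* and *Actb* are lowest in hypHSC 5 and next lowest in hypHSC 4, *Sat1* and *H3f3b* are highest in hypHSC 5 and next highest in hypHSC 4, and *Lyz2* varies 1.27-fold.

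The lists were then described by how many members had hypHSC 5 lowest, with no test that sets one list apart from all genes. Of 40 lysosomal genes, 12 were at least 2-fold lowest in hypHSC 5, beside 19.3% of all genes, and 34 of 40 had a higher mean at 13 weeks, with a median log2 difference of 0.39. The summed lysosomal level was 1358613 normalized counts in hypHSC 5 and 2507054 to 3518745 in the other 4. Within the list, *Ctss*, *Cd63*, *Cd68* and *Npc2* were among those that did not follow, and *Cd68*, a macrophage sialomucin, had 179811 in hypHSC 5 and 115258 to 196974 in the others. Of 25 genes of fatty acid and triglyceride synthesis, 9 were at least 2-fold lowest in hypHSC 5. *Dgat1*, which makes triglycerides, had 245, 268, 319, 189 and 21.2 in hypHSC 1 to 5, and *Fasn*, fatty acid synthase, 234, 295, 193, 147 and 56.0. The same held for 9 of 30 proliferation genes, 4 of 10 MHC class II genes and 5 of 11 portal fibroblast genes. Of 23 hypoxia and glycolysis genes, 7 were, among them *Slc2a1*, the glucose transporter GLUT1, with 919, 1524, 1343, 228 and 15.1, and *Pkm*, pyruvate kinase, with 69864, 82639, 79673, 37876 and 12342.

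Among the core macrophage genes, 6 of 20 were at least 2-fold lowest in hypHSC 5, beside 19.3% of all genes. *C1qa*, a chain of complement C1q, had 51667, 42243, 38304, 17653 and 2231 normalized counts in hypHSC 1 to 5, while *C1qc*, which forms the same complex, had 9775, 5158, 4412, 9421 and 11707. *Csf1r*, the receptor for macrophage colony-stimulating factor, had 14052, 24497, 24120.2, 5275 and 1833, and *Adgre1*, the F4/80 antigen, 5914, 7144, 8099.7, 5265 and 1113. *Cybb*, a subunit of the phagocyte oxidase, had 26364, 32893, 32932, 31496 and 36309, and *Ptprc*, the leukocyte antigen CD45, 16170.1, 21797, 22420, 22478 and 30003. The macrophage genes of hypHSC 5 thus ranged from far below to above those of the other preparations, and the sum of the list was 1632596 in hypHSC 5 and 1778136 to 2068463 in the others.

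Hepatocyte transcripts went the other way. Of 25 hepatocyte genes, 15 were at least 2-fold highest in hypHSC 5, beside 5.64% of all genes, and the summed level was 144265, 146131, 88054, 248792 and 519882 in hypHSC 1 to 5. In the qHSC libraries it was 135676 to 328625. *Fabp1*, the fatty acid-binding protein of hepatocytes, had 10567, 8634, 2849, 33734 and 94816 normalized counts, and *Apoa2*, an apolipoprotein of HDL, 9524, 9537, 3626, 43071 and 135759. *Alb* (albumin) had 4052, 2850.1, 1235, 6711 and 16356. hypHSC 3 was lowest in each of these, so the 12-week group held both the lowest and the highest values, and 18 of 25 genes had a lower mean at 13 weeks with 0 of them free of overlap. Without hypHSC 5 the median log2 difference of the list turned from -0.59 to 0.26. *Trf* (transferrin), which macrophages also express, was instead lowest in hypHSC 5 with 29391 against 60155 to 66644. *Mup21*, a major urinary protein of hepatocytes, was one of the genes with the largest gap above the others, with 4168 in hypHSC 5 and 110 to 508 in hypHSC 1 to 4, and its sequence is close to that of other *Mup* genes, so the reads may be shared.

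Nuclear genes of oxidative phosphorylation divided the 12-week preparations in the same way. Over 98 such genes the median log2 level relative to the mean of the 5 libraries was 0.06 and -0.26 in hypHSC 1 and 2, -0.59 in hypHSC 3, 0.24 in hypHSC 4 and 0.63 in hypHSC 5, and 64 of the 98 had a lower mean at 13 weeks. Their median log2 difference of -0.18 became 0.08 without hypHSC 5. *Cox5a*, a subunit of cytochrome c oxidase, had 528, 355, 338, 3212 and 3631 normalized counts, which set hypHSC 4 and 5 apart from the rest by at least 6.08-fold, the lower of these 2 over the highest of the other 3. *Atp5k*, a subunit of ATP synthase, had 6759, 5103.8, 3898, 9628 and 18470.4. These subunits work together with those encoded by mitochondrial DNA, whose share of reads was highest in hypHSC 1 and 2 and did not follow this order. The 86 cytosolic ribosomal protein genes that passed the filter were steadier, with a median SD of 0.35 against 0.76 over all genes, but many have processed copies elsewhere in the genome, so their reads are uncertain.

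Each of the other preparations had genes of its own. In hypHSC 1 the leading genes were *Fxyd3*, *Pdzk1ip1* and *Wfdc2*, all known from epithelia, with 1471, 1764 and 459.5 normalized counts against at most 292, 366 and 49.9 in the other 4. Bile duct genes were high in the same library, with 710.1 normalized counts of *Krt19*, a keratin, against 33.3 to 202 in the others, and 4122 of *Cldn4*, a claudin of tight junctions, against 33.3 to 1244. Of 12 cholangiocyte genes 10 had a higher mean at 13 weeks, beside 63.5% of all genes. *Cldn4* and *Krt7* did so without overlap, a share near the 16% of all genes. In hypHSC 2 the leading genes were *Etv6*, *Hcar2* and *Lrrtm2*. *Hcar2*, the receptor for beta-hydroxybutyrate and niacin, had 1647 normalized counts against 3.02 to 633. In the same library *Lurap1l*, *Mbl2* (mannose-binding lectin) and *Fdx1* were lowest, with 3.11, 4.14 and 15.5 against at least 43.0, 46.6 and 107.

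In hypHSC 3 *Unc13b*, *D130017N08Rik* and *Dio2*, the deiodinase that activates thyroid hormone, were highest, with 285, 300.2 and 292 normalized counts against at most 120, 99.4 and 121. *Apol7a* and the alpha-globins were at 0 there. In hypHSC 4 *Cldn12*, a claudin, *Rtl6* and *Prr15l* were at 0 against at least 224, 66.3 and 63.5, and *Lrg1*, an acute-phase glycoprotein, and *C030034I22Rik* were highest, with 971 and 281 against at most 215 and 75.7. *Cenpv* was highest in hypHSC 5 with 390.2 against at most 48.3. *G530011O06Rik* has an entry on X and one on Y, between which reads are uncertain, and its Y entry was lowest in hypHSC 1 with 133 against 564 to 2290.

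The remaining gene with a large gap in hypHSC 4 was the entry named *Mir34a*, with 75.5, 247, 304, 1202 and 318 normalized counts in hypHSC 1 to 5 and at most 43.3 in the qHSCs. The entry spans chr4:150152911-150155456 on mm39, far more than the microRNA itself, and the libraries were primed from poly(A) tails, so these are counts of the primary transcript and not of the mature microRNA. Both mature arms of miR-34a, a microRNA known as a target of p53, were found in the entry on the plus strand of GRCm39, from their RefSeq sequences. The arms are shown to make clear what part of the entry the microRNA takes up, with the seed, bases 2 to 8, in capitals, at chr4:150152930-150152951 and chr4:150152974-150152994.
mmu-miR-34a-5p: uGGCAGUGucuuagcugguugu
mmu-miR-34a-3p: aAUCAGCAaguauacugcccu

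The genes in which a library stood apart differed in base composition, most of all in hypHSC 5. The median GC content of the longest transcript was 52.0% for the 2944 genes lowest in hypHSC 5 and 45.9% for the 859 highest in it, beside 49.0% over the 14898 genes with a GENCODE transcript. For hypHSC 1 to 4 the medians were 48.3%, 47.5%, 47.1% and 50.4% for the genes lowest in each. For the genes highest in each they were 51.1%, 50.7%, 48.8% and 49.1%. Genes were also put in 5 equal groups by GC content. In the group with the highest GC content the median log2 level relative to the mean of the 5 libraries was -0.98 in hypHSC 5 and -0.19 in hypHSC 4, and 0.49, 0.50 and 0.39 in hypHSC 1, 2 and 3. In the group with the lowest GC content it was 0.34 and 0.07 in hypHSC 5 and 4, and 0.00, -0.11 and -0.13 in hypHSC 1, 2 and 3. Across genes, which are not independent and share their library, Spearman's rho between GC content and this relative level was 0.27, 0.28, 0.23, -0.14 and -0.33 in hypHSC 1 to 5. The transcript length had rho of -0.13 to 0.15. The median difference between 13 and 12 weeks was -0.11 in the lowest and 0.80 in the highest group, so GC content moved with the week contrast too, and its part in the result was not tested beyond the corrected values given above.

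**Figure D5:**
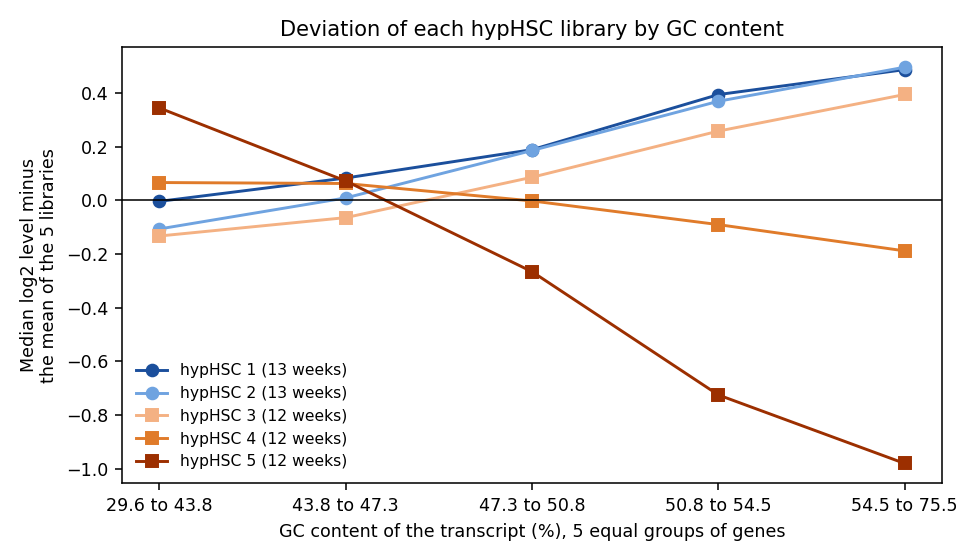
Median log2 level of each hypHSC library relative to the mean of the 5 libraries, over 5 equal groups of genes ordered by the GC content of the longest transcript. hypHSC 5 runs from 0.34 in the lowest group to -0.98 in the highest, hypHSC 4 slopes the same way less steeply, and hypHSC 1, 2 and 3 slope upward.

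A pair of genes from the abundant set, chosen after their values were seen, illustrates such a difference in letters. *Ctsd*, which was lowest in hypHSC 5, has a GC content of 56.5% over its longest transcript, and *Sat1*, which was highest in hypHSC 5, 43.8%. The first 90 coding bases of their canonical GENCODE transcripts are given with G and C in capitals, 55.6% of the bases in *Ctsd* and 45.6% in *Sat1*. They come from exons 1 and 2 of each gene on the minus strand of GRCm39, within chr7:141939334-141941541 and chrX:153998809-153999164.
Ctsd: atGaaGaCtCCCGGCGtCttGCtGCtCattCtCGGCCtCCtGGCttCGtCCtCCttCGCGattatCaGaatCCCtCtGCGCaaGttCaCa
Sat1: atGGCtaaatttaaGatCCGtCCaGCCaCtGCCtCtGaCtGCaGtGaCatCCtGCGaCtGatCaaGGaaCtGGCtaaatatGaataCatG

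The base composition did not sort every gene. *Apoe*, apolipoprotein E, has the GC content of *Ctsd*, 56.5%, but had 88855, 244225 and 227494 normalized counts in hypHSC 1 to 3 and 1306746 and 698644 in hypHSC 4 and 5, a 14.7-fold range in the opposite direction. *Cttn*, at 0 in hypHSC 5, has a GC content of 52.4%, but *Capn6* and *Pcdhb9*, also at 0, have 39.5% and 47.8%, and *Cenpv*, highest in hypHSC 5, has 60.5%.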

How the data were processed

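Gene levels were measured by RNA sequencing of amplified poly(A)-primed cDNA without strand information. According to the methods, the authors aligned read pairs of 59 bases with STAR to mm39, counted them with featureCounts (Subread 1.5.0) on the FAST DB annotation and deposited DESeq2-normalized counts, a signal unit from which whole reads were recovered for all values (within 0.01 of a read). Here log2(value + 1) was fitted with limma 3.58.1 (lmFit, eBayes with trend) in R 4.3.3, 13 against 12 weeks over the 5 hypHSC libraries. Calls needed a Benjamini-Hochberg adjusted p of 0.05 and a 2-fold difference. edgeR 4.0.16 and DESeq2 1.42.0 were run on the recovered reads. The fits were also run on simulated reads in which no library stood apart, so that run cannot show how they perform on these libraries. Entries without a symbol were left out. Named genes were members of the lists, the 10 highest and 10 lowest limma statistics among genes with a mean of at least 100 in either group and no overlap between weeks, the 10 largest and 5 smallest SDs (means of at least 100 and 1000), and the 3 largest gaps on each side of each library. The members and lists were chosen with earlier results of these data known. The GC correction, non-overlap counts under other settings and shares with a library left out were chosen after seeing the data. GC content came from GENCODE transcripts on GRCm39, matched for 97.86% of the genes.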

Additional observations from a re-analysis of the deposited data

Results flagged for a closer look

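Within the 5 hypHSC libraries, 19 library measures and list sums and 56 named genes were examined for a single value far from the other 4 (Dixon's ratio above 0.71), which chance gives in about 1 of 20 groups. The median absolute log2 deviation of hypHSC 5 was 1.02, against 0.453 to 0.602 in the others. The summed level of quiescent HSC genes, 52.7% of it the single gene *Dcn*, was 74951 normalized counts in hypHSC 1, against 39115 to 48740. Of the named genes 11 had such a value, and as several were chosen for a large gap or SD, their number is not evidence of more than the choice. In hypHSC 1 these were *Fxyd3* with 1471 and *Pdzk1ip1* with 1764 normalized counts, against 233 to 292 and 197 to 366. In hypHSC 4 they were *C030034I22Rik* with 281 against 51.4 to 75.7, *Abce1* with 2088 against 1922 to 1961, and *Cldn12* and *Rtl6*, both with 0. In hypHSC 5 they were *Pcdhb9*, *Cx3cr1*, *Adar*, *Cttn* and *Capn6*, all with 0.

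Entries of the mitochondrial genome, which carry no symbol and entered no comparison of genes, held at least 2.21% of the reads in every hypHSC library, above the 1.25% to 1.61% of the qHSC libraries.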

How the results depend on the processing

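The 13 against 12 weeks fit called 0 genes, 1 with all 10 libraries in the fit (*D830030K20Rik*), 3576 with library quality weights that did not converge, and 0 in the other alternatives run. The 351 log2 differences of 20 named genes recomputed over 18 settings all had the direction given in the report. These genes were picked for week groups that do not overlap, so leaving out a library could not reverse them. Their direction here therefore adds little to that choice. Of the 351 values, 20 passed the threshold, all with quality weights. No paired analysis was possible because the 13-week and 12-week groups share no replicate number.

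The median log2 difference of all genes was 0.0397 in DESeq2, 0.0395 in edgeR, 0.0338 with GC correction, 0.15 with TMM factors and 0.16 for means of at least 100. With GC correction the median was 0.54 for quiescent HSC, 0.71 for activated HSC, 0.41 for MHC class II, 0.67 for sinusoidal endothelial and -0.0533 for ribosomal protein genes. In DESeq2 and edgeR it was 0.97 and 0.99 for monocyte and dendritic cell genes, 1.34 and 1.35 for neutrophil genes and 0.84 and 0.84 for sinusoidal endothelial genes. With quality weights it was 1.77 for monocyte and dendritic cell genes and 1.43 for sinusoidal endothelial genes. The cause was not tested.

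With 1 library left out the medians ran from 0.70 to 1.47 for quiescent HSC, 0.11 to 0.28 for core macrophage, -0.28 to 0.27 for Kupffer cell (-0.28 without hypHSC 5), 0.94 to 1.90 for monocyte and dendritic cell, 1.35 to 1.84 for neutrophil, 0.59 to 1.09 for interferon, 0.82 to 1.31 for sinusoidal endothelial, -1.46 to 0.26 for hepatocyte and -0.51 to 0.08 for oxidative phosphorylation genes, the last 2 above 0 only without hypHSC 5. With GC correction the core macrophage median was -0.03. Genes with both 13-week libraries above all others were 20.7% to 36.8%, and below 8.68% to 21.2%, since fewer libraries overlap less. Above was 10.5% with GC correction, and below was 9.61% with TMM factors and 9.69% with GC correction.

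With a 4-fold gap, genes above and below the other libraries were 71 and 52 for hypHSC 1, 25 and 110 for hypHSC 2, 12 and 124 for hypHSC 3, 21 and 351 for hypHSC 4, and 110 and 1564 for hypHSC 5. With means of at least 100 they were 148 and 57, 24 and 37, 11 and 154, 20 and 159, and 534 and 1645, in the same order. Counting error limits genes near 3 reads, and the number of libraries limits every test between weeks.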
